A study of Mus musculus with 21 samples.

Results

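Transcripts of 49 genes for DNA replication and nucleotide supply were followed in the mouse melanoma line B16-F10 under low oxygen and under cobalt chloride (CoCl2), a salt that chemically mimics hypoxia. The genes were chosen by symbol, for roles in starting replication, at its fork, in nucleotide supply, in copying chromatin or in S phase entry. Earlier results of these data were known when they were chosen. A single-gene probe set was found for 47 of the 49 genes, out of 8251 genes so measured, and each gene was read from its probe set with the highest mean. Pole, the catalytic subunit of DNA polymerase epsilon, had no probe set in the annotation used. Tyms, thymidylate synthase, had only probe sets shared with its pseudogene Tyms-ps, so neither gene has a value here.

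B16-F10 is an established line from a C57BL/6J mouse melanoma, so all groups share 1 cell line and 1 strain. Its RNA was hybridised to 21 Affymetrix U74Av2 arrays in 9 groups. Hypoxia was 24 h at 1% oxygen, in a Billups-Rothenberg chamber (3 arrays, 2 controls at 21% oxygen) or in a flow-regulated incubator in experiment 1 and again in experiment 2 (3 arrays and 2 controls each). Experiment 3 held 2 arrays at 100 µM CoCl2 for 24 h, 2 arrays at 200 µM CoCl2 for 24 h and 2 controls at 21% oxygen. How long the controls were kept is not given in the labels, and neither is the oxygen level of the CoCl2 cultures. The chamber controls were placed with the chamber arrays because neither carries an experiment number. The chamber was used in 1 set alone, and CoCl2 in experiment 3 alone, so device and set, like treatment and experiment, cannot be told apart. The labels call the arrays of a group biological replicas and do not state whether cultures were separate, so the p-values describe array-to-array spread alone, which may be technical.

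Replication begins where the origin recognition complex marks DNA and where Cdc6 and Cdt1 load the MCM helicase onto it, a step called licensing that is confined to G1. Kinases then fire the licensed origins, polymerase alpha and primase lay down primers, and the clamp PCNA with its loader RFC holds the main polymerases on the template, while ribonucleotide reductase supplies the deoxynucleotides. Most of these genes are transcribed as cells approach S phase, many of them through the E2F transcription factors, so cycling tumour cells carry their transcripts and arrested cells carry few.

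Array medians lay between 5.44 and 5.53 log2 units, and the arrays of a group correlated between 0.980 and 0.998 across genes, with the lowest values in the CoCl2 pairs. RNA quality differed between the sets. Actb is read at both ends of its transcript, and the gap between the 3′ and the 5′ reading widens with poorer RNA. On the 15 hypoxia-set arrays this gap spanned 0.15 to 0.50 log2 units, and in experiment 3 it spanned 0.50 to 2.36. Of 8 measured markers of pigment cells, 7 lay above the array median, led by Pmel at 11.86. Defining markers of other cell types lay mostly under it, with 3 of 9 fibroblast, 1 of 7 leukocyte, 1 of 6 endothelial and 2 of 6 epithelial genes above the median.

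Most of the module was lower under both treatments, and more so under CoCl2. With hypoxia, 41 of the 47 genes fell (limma, adjusted p under 0.05 over all genes), where 19.5% of all genes fell, and 1, Orc4, rose, where 12.6% of all genes rose. With CoCl2, as the mean of both doses, 41 of 47 fell against 23.0% of all genes, and 3 rose (Mcm6, Pola2 and Msh6) against 23.3%. The median change of the members was -0.58 log2 units with hypoxia and -1.49 with CoCl2, where the median over all genes was 0.01 and 0.12. Under both treatments 40 of the 47 fell, against 13.3% of all genes, and 5 (Mcm6, Orc4, Pola2, Dut and Msh6) fell under neither. Where a pair of changes follows a gene or probe set with no treatment named, the first is with hypoxia and the other with CoCl2, in log2 units. In bulk RNA, fewer cells expressing a gene and less RNA of it per cell cannot be told apart.

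**Figure D1:**
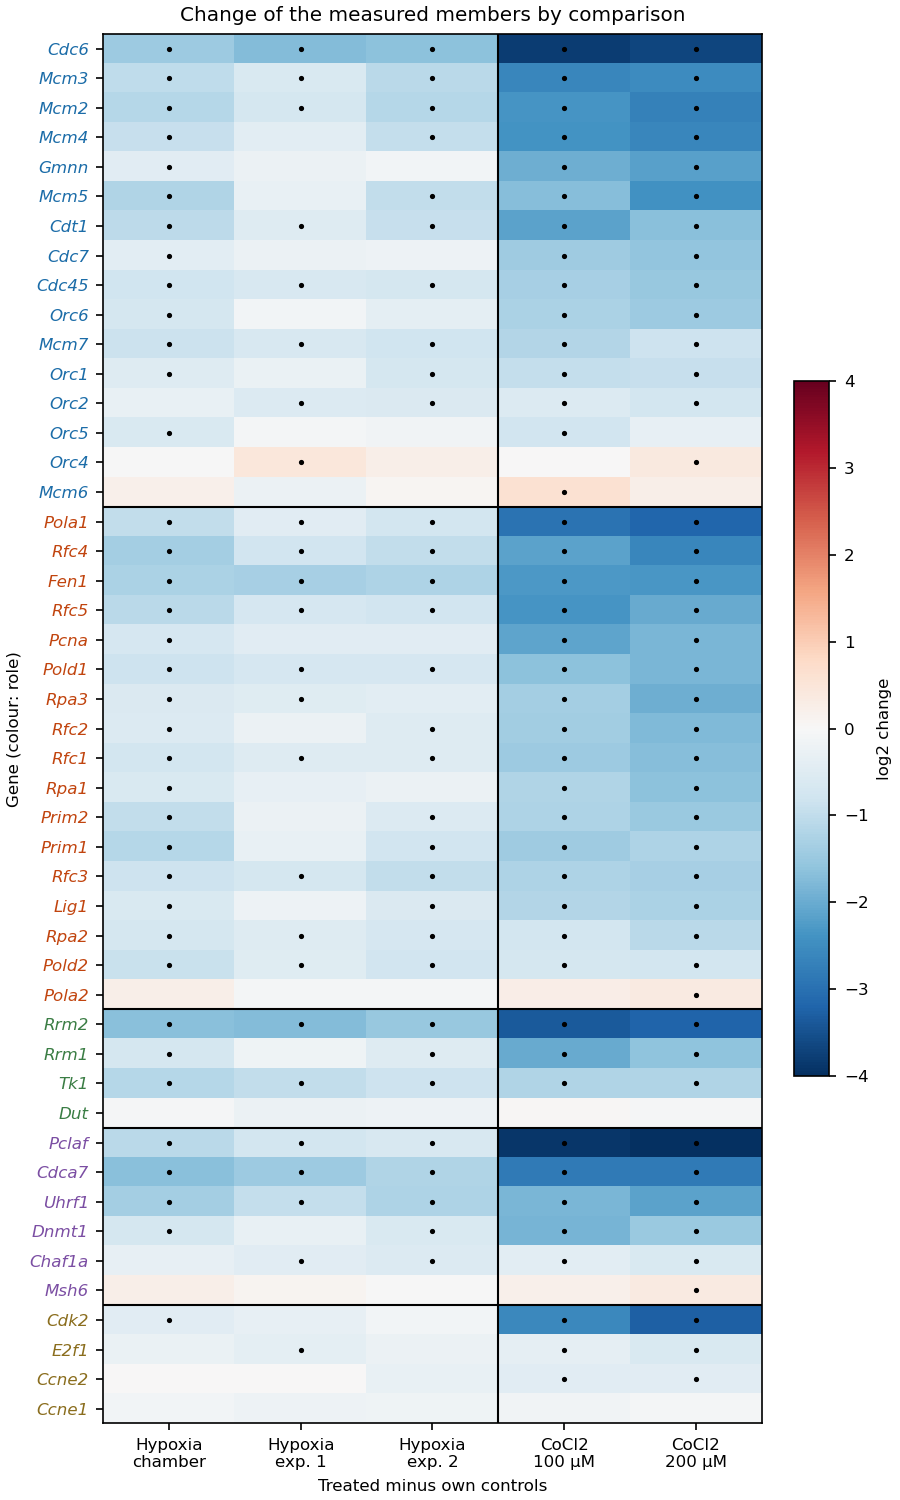
Change of each of the 47 measured members in log2 units, treated minus own controls, in the 3 hypoxia sets and at both CoCl2 doses. Genes are grouped by role (label colour and horizontal lines), blue is lower and red higher in treated cells, and a dot marks an adjusted p under 0.05. Blue fills most rows and is deeper in the CoCl2 columns, where Pclaf reaches -4.00 at 200 µM.

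The distribution of changes shows the same shift. In hypoxia the members lay between -1.64 and 0.22 log2 units, and with CoCl2 between -3.95 and 0.42. Without any overlap between groups, every hypoxia array lay below its own controls in all 3 sets for 30 of the 47 members, against 12.3% of all genes. Every CoCl2 array lay below the experiment 3 controls for 41 members, against 20.9% of all genes, and above them for 2 members (Pola2 and Msh6), against 28.6%.

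**Figure D2:**
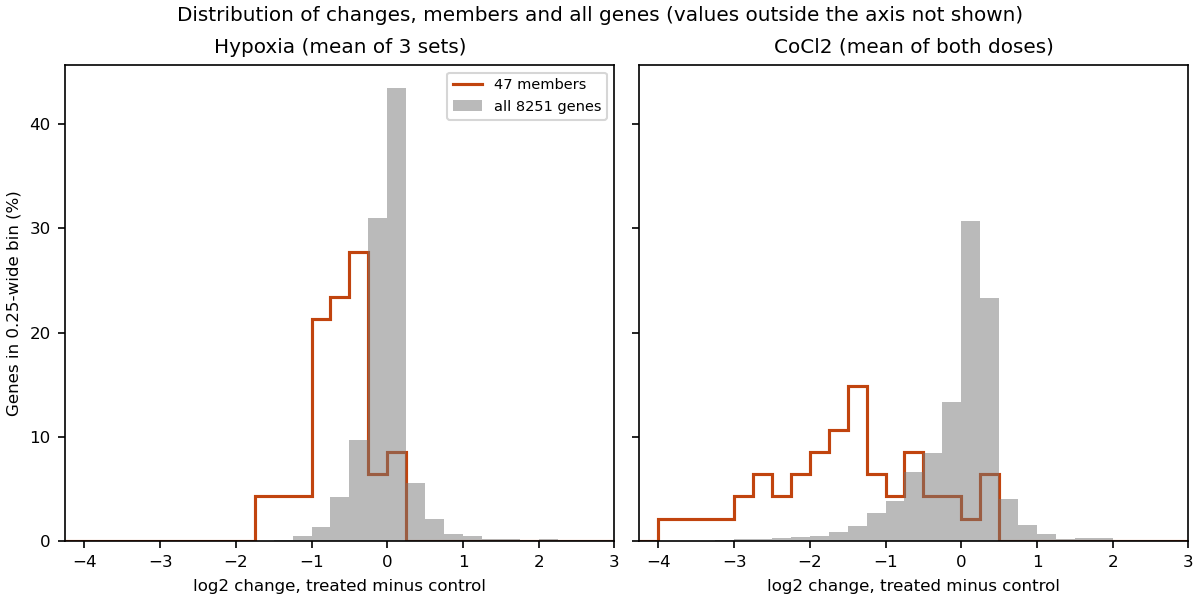
Share of genes, in percent, by log2 change (bins 0.25 wide) for the 47 members (line) and all 8251 genes (filled), with hypoxia on the left and CoCl2 on the right. Most of the members' line lies left of zero, around a median of -0.58 with hypoxia and -1.49 with CoCl2, while all genes centre near 0.

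E2F sites were looked for in the promoters, because the members moved together and E2F factors are known to drive many of them. RefSeq promoters of the mouse build GRCm38.p6, from 250 bases before to 50 bases after each start, were found for 43 of the 49 genes (none was found for Rfc2, Prim2, Ccne2, Pole, Gmnn or Mcm4). The letters searched were TTTGGCGC, TTTGCCGC, TTTCGCGC and TTTCCCGC on both strands, the closest forms of the E2F site, and overlapping matches were all counted. At least 1 match stood in the promoters of 17 of 43 members (39.5%), against 4.09% of 6534 other genes on the arrays and 2.6% of all 27025 genes in the table. The CCAAT box (CCAAT on both strands), which binds NF-Y, stood in 62.8% of the members, 42.4% of the other array genes and 41.1% of all genes. The cell cycle genes homology region (TTTGAA or TTCGAA, both strands) stood in 18.6%, 17.5% and 21.7%, the E-box CACGTG in 18.6%, 11.4% and 8.09%, and the hypoxia response core (ACGTG or GCGTG, both strands, which overlaps the E-box) in 74.4%, 63.2% and 46.7%. The 17 measured members with an E2F octamer had a median change of -0.77 log2 units with hypoxia and -1.90 with CoCl2, and the 25 without had -0.49 and -1.37. Of these, 15 of 17 with an octamer and 22 of 25 without fell with hypoxia, and 15 and 21 fell with CoCl2. A match is a run of letters and not a measured binding site.

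The sequences below are the 250 bases before the start of the 5 members that fell furthest with CoCl2 among those with an octamer there, and of Mcm6, which has octamers and did not fall. Capitals mark the E2F octamers, and each sequence is written 5′ to 3′ along the gene's strand. Cdc6 lies at chr11:98907901-98908150 on the plus strand, Pola1 at chrX:93632156-93632405 on the minus strand, Cdk2 at chr10:128705052-128705301 on the minus strand, Cdca7 at chr2:72475969-72476218 on the plus strand, Mcm5 at chr8:75109259-75109508 on the plus strand and Mcm6 at chr1:128359706-128359955 on the minus strand.
Cdc6: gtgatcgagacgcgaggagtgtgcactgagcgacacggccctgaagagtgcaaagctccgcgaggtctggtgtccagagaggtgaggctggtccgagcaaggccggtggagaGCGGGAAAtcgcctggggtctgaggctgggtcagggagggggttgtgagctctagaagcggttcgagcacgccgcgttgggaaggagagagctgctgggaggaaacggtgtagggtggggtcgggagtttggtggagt
Pola1: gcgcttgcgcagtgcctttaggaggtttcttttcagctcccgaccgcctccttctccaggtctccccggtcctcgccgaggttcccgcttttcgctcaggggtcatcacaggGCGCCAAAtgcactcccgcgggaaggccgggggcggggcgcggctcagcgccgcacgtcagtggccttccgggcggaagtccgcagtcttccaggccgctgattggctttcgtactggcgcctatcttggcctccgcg
Cdk2: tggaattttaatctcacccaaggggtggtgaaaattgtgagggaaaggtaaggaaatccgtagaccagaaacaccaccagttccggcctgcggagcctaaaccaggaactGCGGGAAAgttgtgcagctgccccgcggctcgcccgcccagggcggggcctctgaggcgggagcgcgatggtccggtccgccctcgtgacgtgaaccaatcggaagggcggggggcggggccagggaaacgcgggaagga
Cdca7: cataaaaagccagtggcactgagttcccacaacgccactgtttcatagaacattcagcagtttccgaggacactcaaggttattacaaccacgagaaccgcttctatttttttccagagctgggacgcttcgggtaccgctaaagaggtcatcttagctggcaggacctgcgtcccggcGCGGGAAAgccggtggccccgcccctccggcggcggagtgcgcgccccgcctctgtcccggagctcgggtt
Mcm5: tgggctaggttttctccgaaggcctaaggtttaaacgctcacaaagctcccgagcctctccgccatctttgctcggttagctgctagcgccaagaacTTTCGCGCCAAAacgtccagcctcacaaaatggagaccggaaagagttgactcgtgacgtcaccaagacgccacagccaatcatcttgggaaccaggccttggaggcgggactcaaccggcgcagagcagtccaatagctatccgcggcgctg
Mcm6: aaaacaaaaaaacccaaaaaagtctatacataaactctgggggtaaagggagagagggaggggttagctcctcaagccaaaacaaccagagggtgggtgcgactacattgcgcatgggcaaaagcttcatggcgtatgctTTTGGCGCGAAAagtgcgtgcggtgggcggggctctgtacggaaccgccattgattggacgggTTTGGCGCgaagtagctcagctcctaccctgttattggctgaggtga
In Cdc6 and Pola1 the octamer begins 138 bases before the start, in Cdk2 140 and in Cdca7 71. Mcm5 holds 2 overlapping octamers, 153 and 149 bases before the start. Mcm6 holds 3, of which 2 overlap, between 110 and 47 bases before the start. The letters thus stand both in promoters of genes that fell furthest and in that of a gene whose probe set did not fall.

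Of the 16 licensing genes, which mark and load origins, 14 fell with hypoxia and 14 with CoCl2, with medians of -0.60 and -1.46 log2 units. Cdc6, the loader of the MCM helicase, read 6.56, 6.68 and 6.68 log2 units in chamber hypoxia, against 8.10 and 8.09 in its controls. Its incubator values were 5.81, 5.92 and 5.44 in hypoxia against 7.65 and 7.31 in controls of experiment 1, and 6.11, 6.08 and 6.23 in hypoxia against 7.75 and 7.83 in controls of experiment 2. In experiment 3 the values were 4.34 and 4.31 under 100 µM CoCl2 and 4.62 and 4.28 under 200 µM, and the controls read 8.08 and 8.17. No treated array overlapped a control, and all 4 CoCl2 arrays lay below all 9 hypoxia arrays. Cdc6 changed by -1.62 ± 0.08 log2 units with hypoxia (3.07-fold lower; SE; 9 hypoxia and 6 control arrays; adjusted p = 3.5e-13) and by -3.74 ± 0.13 with CoCl2 (13.4-fold lower; 4 and 2 arrays; adjusted p = 3.7e-15).

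The MCM helicase has 6 subunits, and 5 of them fell under both treatments. Mcm2 read 8.30 to 8.72 in the 9 hypoxia arrays, against 9.21 to 9.76 in their 6 controls. Values with CoCl2 were 7.22 and 7.41 at 100 µM and 6.98 and 6.96 at 200 µM, against 9.80 and 9.52 in controls. These groups did not overlap, and Mcm2 changed by -0.99 ± 0.07 with hypoxia and by -2.52 ± 0.11 with CoCl2. Mcm3 changed by -0.91 and -2.57, Mcm4 by -0.77 and -2.50, and Mcm5 by -0.83 and -2.06. Mcm7 changed by -0.77 ± 0.08 with hypoxia and by -1.0 ± 0.14 with CoCl2, so its changes lay closer together than those of its partners. A further probe set of Mcm3 (-0.95 and -3.01) fell as well, while that of Mcm5 was not called with hypoxia (0.04) and was higher with CoCl2 (0.33).

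Mcm6, the remaining subunit, went its own way on this array. It read 3.68, 3.96 and 3.66 in chamber hypoxia against 3.52 and 3.60 in controls, 3.65, 3.64 and 3.46 in hypoxia against 3.91 and 3.74 in controls of experiment 1, and 3.88, 3.55 and 3.77 in hypoxia against 3.69 and 3.65 in controls of experiment 2. Under CoCl2 it read 4.73 and 3.85 at 100 µM and 4.10 and 3.69 at 200 µM, against 3.74 and 3.61 in controls. All of these values lie under the array medians. The hypoxia arrays lay above both controls in the chamber set and below both in experiment 1, and overlapped them in experiment 2. Both arrays at 100 µM lay above the controls, and those at 200 µM overlapped them. Its change was 0.01 ± 0.10 with hypoxia (adjusted p = 0.96) and 0.42 ± 0.17 with CoCl2 (adjusted p = 0.049). The CoCl2 call was lost on leaving out any of 19 of the 21 arrays in turn, with 0.20 and an adjusted p of 0.23 without array 1 at 100 µM. It was also lost under 7 of 9 other settings, with adjusted p up to 0.22.

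Cdt1, which helps Cdc6 load the helicase, changed by -0.84 ± 0.07 with hypoxia and by -1.90 ± 0.11 with CoCl2, and its further probe set changed by -0.87 and -2.28. Gmnn encodes geminin, the inhibitor of Cdt1. Its CoCl2 arrays read 4.50 and 4.75 with the lower dose and 4.53 and 4.27 with the higher one, against 6.76 and 6.41 in controls, and changed by -2.07 ± 0.14. With hypoxia Gmnn changed by -0.27 ± 0.09 (adjusted p = 0.020), a call lost without control array 1 of the chamber set, of experiment 1 or of experiment 2 (adjusted p up to 0.085, with -0.23). Its fall was thus small with hypoxia and large with CoCl2.

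Cdc7, the catalytic subunit of the kinase that fires licensed origins, showed a like pattern, with -0.29 ± 0.08 with hypoxia (adjusted p = 0.0054) and -1.49 ± 0.13 with CoCl2 (adjusted p = 4.6e-09). Cdc45, which joins the MCM ring to form the active helicase, changed by -0.71 ± 0.09 and -1.43 ± 0.14. Among the origin recognition subunits, Orc1 changed by -0.50 with hypoxia and -0.92 with CoCl2, Orc2 by -0.47 and -0.65, Orc5 by -0.28 and -0.55, and Orc6 by -0.40 and -1.37. The hypoxia call of Orc5 was lost without control array 2 of the chamber set or of experiment 1 (adjusted p up to 0.10, with -0.21). Its CoCl2 call was lost without control array 2 of experiment 3 (adjusted p = 0.13, with -0.36), and its further probe set gave 0.02 and 0.29, neither called.

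Orc4, a core subunit of the same complex, was the 1 member that rose with hypoxia. It read 6.90, 6.90 and 6.98 in chamber hypoxia against 7.04 and 6.84 in controls, 7.39, 7.32 and 7.11 in hypoxia against 6.96 and 6.68 in controls of experiment 1, and 7.18, 7.05 and 6.99 in hypoxia against 6.74 and 6.96 in controls of experiment 2. The groups overlapped in the chamber set and did not in either incubator experiment. Orc4 rose by 0.22 ± 0.07 (adjusted p = 0.024). The call was lost without control array 2 of the chamber set or of experiment 1, hypoxia array 1 of experiment 1 or control array 1 of experiment 2 (adjusted p up to 0.11, with 0.18), and with replicate number as a block (adjusted p = 0.053). With CoCl2 its change was 0.21 ± 0.12 (adjusted p = 0.17).

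At the fork, 16 of 17 genes for polymerases, clamp, clamp loader, single-strand binding and ligation fell with hypoxia and the same number with CoCl2, with medians of -0.63 and -1.57. Fen1, the nuclease that trims the flaps of Okazaki fragments, read 5.59, 5.69 and 5.63 in chamber hypoxia against 6.89 and 6.93 in controls. It read 5.26, 5.40 and 4.81 in hypoxia against 6.48 and 6.51 in controls of experiment 1, and 5.51, 5.66 and 5.46 in hypoxia against 6.66 and 6.92 in controls of experiment 2. Under CoCl2 it read 3.52 and 3.70 at 100 µM and 3.69 and 3.50 at 200 µM, against 6.03 and 5.81 in controls. The groups did not overlap in any set. Fen1 changed by -1.29 ± 0.08 with hypoxia (2.44-fold lower; adjusted p = 3.0e-11), with changes of -1.27, -1.34 and -1.25 in the chamber, experiment 1 and experiment 2, and by -2.32 ± 0.13 with CoCl2 (4.98-fold lower; adjusted p = 4.9e-12).

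Polymerase alpha with primase begins each strand. Pola1, its catalytic subunit, read 5.77 to 6.52 in the 9 hypoxia arrays, against 6.72 to 7.02 in their 6 controls. With CoCl2 it read 4.66 and 5.19 at 100 µM and 4.88 and 4.54 at 200 µM, against 7.96 and 7.78 in controls, which themselves lay above every other control. Pola1 changed by -0.71 ± 0.09 with hypoxia and by -3.05 ± 0.15 with CoCl2 (8.27-fold lower; adjusted p = 3.8e-13). The primase genes fell too. Prim1 changed by -0.74 with hypoxia and -1.33 with CoCl2, and Prim2 by -0.58 and -1.35.

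Pola2, the regulatory subunit of polymerase alpha, gave opposite answers from its 2 probe sets. The set with the highest mean read 7.54 to 7.85 in hypoxia arrays against 7.54 to 7.85 in their controls, with the chamber's hypoxia arrays above both of theirs, and was called higher with CoCl2 (0.31 ± 0.10; adjusted p = 0.015). That call was lost without control array 1 of experiment 3 (adjusted p = 0.14, with 0.27). The other set read 6.27, 6.38 and 6.31 in chamber hypoxia against 7.08 and 6.97 in controls, 5.95, 5.88 and 5.78 in hypoxia against 6.66 and 6.61 in controls of experiment 1, and 5.88, 6.05 and 6.02 in hypoxia against 6.98 and 6.72 in controls of experiment 2. With CoCl2 it read 5.88, 5.82, 5.94 and 5.72, against 6.48 and 6.68 in controls. By that set, chosen after the disagreement was seen, Pola2 changed by -0.78 with hypoxia (adjusted p = 4.3e-09 among all probe sets) and by -0.74 with CoCl2 (adjusted p = 7.5e-06), and no treated array overlapped its own controls. The direction of Pola2 therefore depends on the probe set.

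The clamp Pcna read 7.63 and 8.63 with the lower CoCl2 dose and 8.47 and 8.31 with the higher one, against 10.25 and 10.20 in controls, and changed by -1.97 ± 0.19. With hypoxia it changed by -0.51 ± 0.12 (adjusted p = 0.0015), although by itself only the chamber set passed the test (-0.66, beside -0.44 and -0.45 in experiments 1 and 2). That chamber call was lost on leaving out any of 3 arrays, with -0.53 and an adjusted p of 0.20 without control array 1 of the chamber set. Of the clamp loader, all 5 subunits fell under both treatments. Rfc4 changed by -1.03 with hypoxia and -2.38 with CoCl2, Rfc5 by -0.84 and -2.20, Rfc3 by -0.85 and -1.28, Rfc1 by -0.58 and -1.57, and Rfc2 by -0.43 and -1.58. Further probe sets of Rfc1 (-0.25 and 0.01) and Rfc5 (0.09 and -0.00) did not follow, except that the one of Rfc1 was lower with hypoxia (adjusted p = 0.040).

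RPA coats single-stranded DNA, and its 3 subunits changed by -0.39 (Rpa1), -0.63 (Rpa2) and -0.49 (Rpa3) with hypoxia and by -1.42, -0.91 and -1.65 with CoCl2. Polymerase delta copies the lagging strand. Its catalytic subunit Pold1 changed by -0.72 ± 0.06 with hypoxia and by -1.75 ± 0.10 with CoCl2, whereas its subunit Pold2 changed by -0.72 ± 0.08 and by -0.72 ± 0.13. Pold2 read 8.33 and 7.75 at 100 µM and 7.94 and 8.09 at 200 µM, against 8.71 and 8.78 in controls. Lig1, the ligase that seals Okazaki fragments, changed by -0.47 and -1.22. Further sets of Pold1 (0.10 and 0.20) and Lig1 (0.07 and 0.25) were not called.

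**Figure D3:**
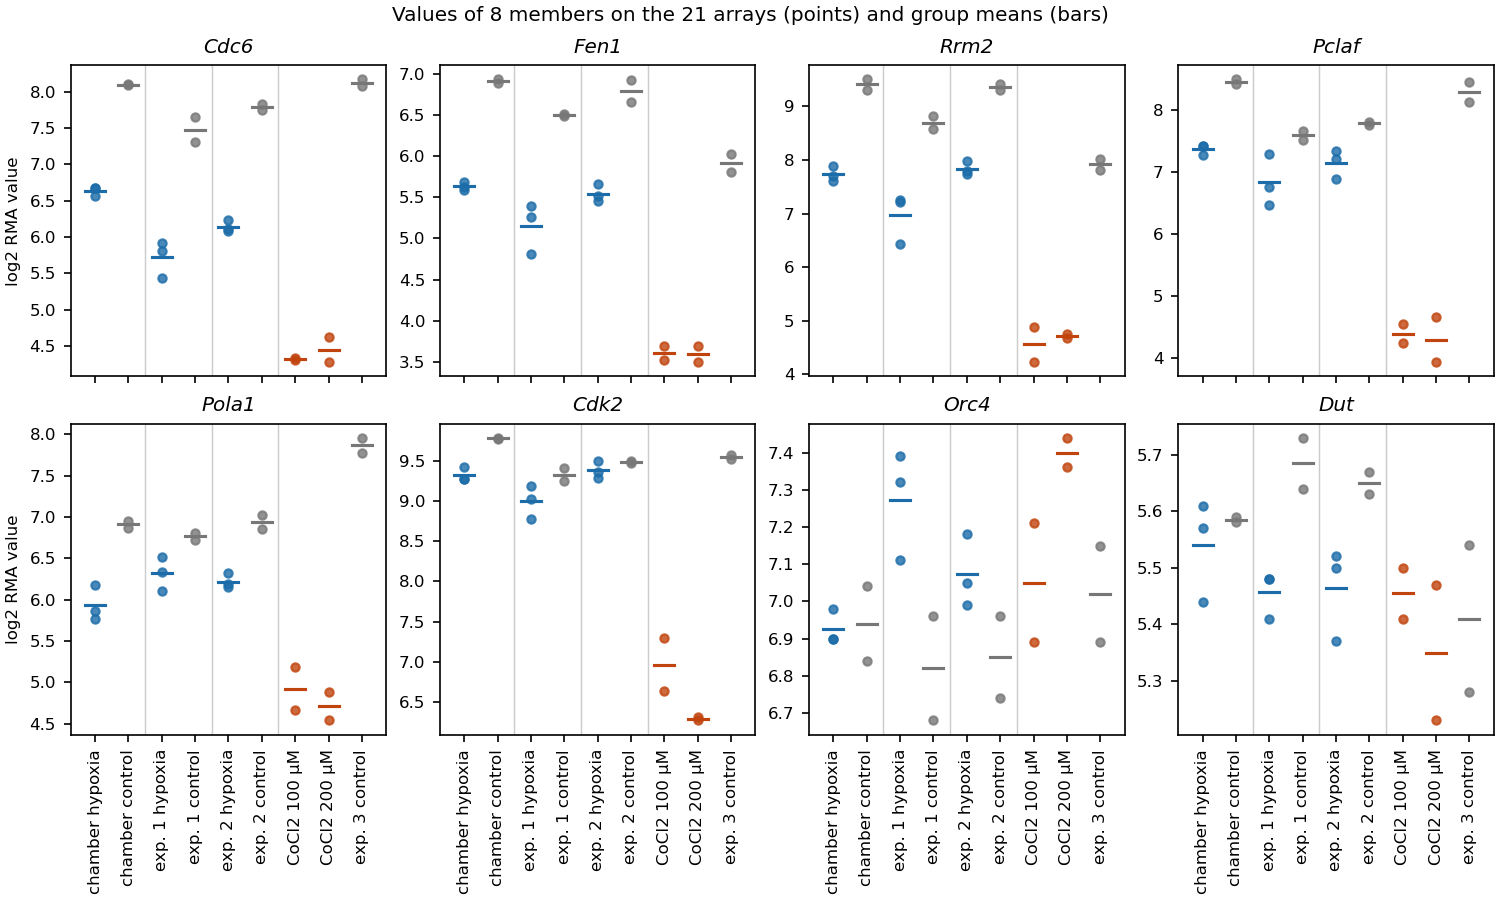
Log2 RMA values of 8 members on all 21 arrays (points) with group means (bars), hypoxia in blue, CoCl2 in orange and controls in grey, each treated group left of its controls and each panel on its own scale. Cdc6, Fen1, Rrm2, Pclaf and Pola1 lie below their controls in every set, Cdk2 falls chiefly with CoCl2 to between 6.27 and 7.30, and Orc4 and Dut overlap their controls in at least 1 set.

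Of the enzymes of nucleotide supply, 3 of 4 fell under each treatment. Rrm2, the S-phase subunit of ribonucleotide reductase, read 7.70, 7.88 and 7.61 in chamber hypoxia against 9.50 and 9.31 in controls, and 7.21, 7.26 and 6.43 in hypoxia against 8.82 and 8.57 in controls of experiment 1. In experiment 2 it read 7.73, 7.98 and 7.79 in hypoxia against 9.31 and 9.41 in controls. The CoCl2 arrays read 4.89 and 4.23 at 100 µM and 4.68 and 4.76 at 200 µM, against 7.81 and 8.02 in controls. Every treated array lay below its own controls by more than 1 log2 unit. Rrm2 changed by -1.64 ± 0.11 with hypoxia (3.12-fold lower) and by -3.28 ± 0.19 with CoCl2 (9.71-fold lower; adjusted p = 5.9e-12).

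Rrm1, the large subunit of the same enzyme, fell less and changed by -0.46 ± 0.08 with hypoxia and by -1.81 ± 0.13 with CoCl2, and its further probe set was not called with hypoxia (-0.03) and was higher with CoCl2 (0.53). Tk1, which salvages thymidine in S phase, changed by -0.98 ± 0.06 with hypoxia and by -1.20 ± 0.10 with CoCl2, and its further set was not called (0.04 and 0.33). Rrm2b, the subunit that p53 induces outside S phase and no member of the module, did not pass the test (0.02 and -0.16). By dose, Rrm2b was lower at 200 µM (-0.37, adjusted p = 0.017) and not called at 100 µM (0.05). Dut, which removes dUTP, read 5.37 to 5.61 in hypoxia arrays against 5.58 to 5.73 in controls, and 5.50, 5.41, 5.47 and 5.23 with CoCl2 against 5.28 and 5.54 in controls. The hypoxia arrays lay below both of their controls in each incubator experiment, and the groups overlapped in the chamber set and with CoCl2. Its change was -0.15 ± 0.06 with hypoxia (95% interval -0.28 to -0.03; adjusted p = 0.057) and -0.01 ± 0.10 with CoCl2 (-0.22 to 0.20; adjusted p = 0.95). Some other settings called Dut lower with hypoxia. Among them were array weights (-0.16, adjusted p = 0.013) and a fit of the hypoxia sets alone (-0.15, adjusted p = 0.019).

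Genes that copy chromatin and DNA methylation behind the fork fell in 5 of 6 cases under each treatment. Pclaf, a partner protein of PCNA, read 7.28, 7.43 and 7.43 in chamber hypoxia against 8.43 and 8.50 in controls, 6.76, 7.29 and 6.47 in hypoxia against 7.53 and 7.66 in controls of experiment 1, and 6.90, 7.22 and 7.35 in hypoxia against 7.76 and 7.82 in controls of experiment 2. The 100 µM arrays read 4.25 and 4.55, the 200 µM arrays 3.94 and 4.66, and the controls 8.45 and 8.14. The CoCl2 arrays lay far below every other array. Pclaf changed by -0.82 ± 0.12 with hypoxia (1.77-fold lower) and by -3.95 ± 0.19 with CoCl2 (15.4-fold lower; adjusted p = 3.8e-13), the largest CoCl2 change among the 47 members. Its further sets fell less or were not called, one with -0.48 and -0.97 and one with -0.16 and -0.24.

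Cdca7, a partner of the chromatin remodeller HELLS, read 5.60 to 6.15 in hypoxia arrays against 6.79 to 7.72 in controls, and 5.05, 4.92, 4.83 and 5.12 with CoCl2 against 7.82 and 7.81 in controls. It changed by -1.45 ± 0.08 with hypoxia and by -2.83 ± 0.13 with CoCl2. Uhrf1, which brings the maintenance methyltransferase to newly copied DNA, changed by -1.17 and -1.99, and Dnmt1, that methyltransferase, by -0.53 and -1.67. A further set of Dnmt1 was not called (0.05 and 0.31). Chaf1a, the large subunit of the histone chaperone CAF-1, changed by -0.44 and -0.51. Msh6, a mismatch repair protein, read 4.77 to 5.41 in hypoxia arrays against 4.65 to 5.22 in controls, and 5.01, 5.06, 5.26 and 5.13 with CoCl2 against 4.90 and 4.79 in controls. In hypoxia it lay above both controls in the chamber set and overlapped them in experiments 1 and 2, and with CoCl2 it lay above them. The change was 0.11 ± 0.07 with hypoxia (adjusted p = 0.26) and 0.27 ± 0.11 with CoCl2 (adjusted p = 0.045). The Msh6 call with CoCl2 was lost in 12 of 21 fits that each left out 1 array, with 0.22 and an adjusted p of 0.23 without control array 2 of experiment 3.

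The 4 genes of the G1/S switch changed little with hypoxia (median -0.23). Ccne1 and Ccne2 encode the E cyclins, the partners of Cdk2 at S phase entry, and E2f1 encodes an E2F factor that they release from the retinoblastoma protein. E2f1 changed by -0.30 with hypoxia and -0.49 with CoCl2, and its further set changed by -0.50 and -0.51. Ccne1 read 7.05 to 7.59 in hypoxia arrays against 7.19 to 7.72 in controls, and 7.0, 7.13, 7.17 and 7.07 with CoCl2 against 7.21 and 7.20 in controls. Its log2 change was -0.17 ± 0.06 with hypoxia (adjusted p = 0.024) and -0.11 ± 0.09 with CoCl2 (adjusted p = 0.32). The first call was lost without control array 1 of the chamber set or of experiment 1 or control array 2 of experiment 2 (adjusted p up to 0.11, with -0.14). Ccne2 had a change of -0.09 ± 0.07 with hypoxia (adjusted p = 0.39) and one of -0.45 ± 0.11 with CoCl2, on values between 2.02 and 2.67 that lie far under the array medians.

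Cdk2, the kinase itself, stood out among these 4. It read 9.28, 9.28 and 9.42 in chamber hypoxia against 9.79 and 9.77 in controls, 9.03, 9.19 and 8.78 in hypoxia against 9.41 and 9.25 in controls of experiment 1, and 9.36, 9.50 and 9.29 in hypoxia against 9.50 and 9.48 in controls of experiment 2. With CoCl2 it read 6.63 and 7.30 at 100 µM and 6.27 and 6.31 at 200 µM, against 9.53 and 9.57 in controls. Hypoxia values overlapped the controls in experiment 2, and CoCl2 values lay more than 2 log2 units below theirs. Cdk2 changed by -0.30 ± 0.08 with hypoxia (adjusted p = 0.0087) and by -2.92 ± 0.14 with CoCl2 (7.56-fold lower; adjusted p = 3.1e-13). A further probe set of Cdk2 gave -0.15 (adjusted p = 0.10) and -0.25 (adjusted p = 0.064), so the size of the fall rests on 1 probe set.

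Probe sets of a gene often disagreed. Of 17 further sets, for 16 genes, 6 had the same call as the set used with hypoxia and 5 with CoCl2. With the mean of all sets of a gene, 42 members were lower with hypoxia and 41 with CoCl2, and the median with CoCl2 was -1.28.

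The members whose sets disagree in call and sign are given by the range of each set, on its own scale. Mcm5 by the set used read 8.60 to 9.25 in hypoxia arrays against 9.15 to 9.97 in controls, and 6.22 to 7.63 with CoCl2 against 8.88 to 8.91 in controls, while the further set read 6.67 to 7.31 in hypoxia arrays against 6.75 to 7.17, and 6.78 to 7.20 with CoCl2 against 6.51 to 6.79. Rrm1 by the set used read 8.43 to 8.86 in hypoxia arrays against 8.61 to 9.22 in controls, and 6.49 to 7.27 with CoCl2 against 8.62 to 8.66 in controls, while the further set read 4.64 to 5.14 in hypoxia arrays against 4.79 to 5.09, and 5.07 to 5.53 with CoCl2 against 4.66 to 4.69. Tk1 by the set used read 8.30 to 8.95 in hypoxia arrays against 9.39 to 10.10 in controls, and 7.48 to 7.59 with CoCl2 against 8.71 to 8.78 in controls, while the further set read 5.61 to 5.85 in hypoxia arrays against 5.62 to 5.87, and 5.81 to 6.52 with CoCl2 against 5.66 to 5.87. With CoCl2, the sets used of Mcm5, Rrm1 and Tk1 lay below their controls and the further sets did not. Pold1 by the set used read 7.56 to 7.84 in hypoxia arrays against 8.22 to 8.56 in controls, and 5.98 to 6.34 with CoCl2 against 7.80 to 7.92 in controls, while the further set read 4.30 to 5.11 in hypoxia arrays against 4.31 to 4.86, and 4.39 to 5.08 with CoCl2 against 4.47 to 4.66. Rfc5 by the set used read 6.92 to 7.07 in hypoxia arrays against 7.59 to 8.08 in controls, and 5.53 to 6.03 with CoCl2 against 7.82 to 8.11 in controls, while the further set read 4.62 to 5.0 in hypoxia arrays against 4.48 to 4.89, and 4.71 to 4.83 with CoCl2 against 4.68 to 4.85. Lig1 by the set used read 6.86 to 7.03 in hypoxia arrays against 7.09 to 7.63 in controls, and 5.87 to 6.35 with CoCl2 against 7.21 to 7.35 in controls, while the further set read 4.59 to 5.11 in hypoxia arrays against 4.52 to 5.02, and 4.48 to 4.94 with CoCl2 against 4.42 to 4.63. Pold1, Rfc5 and Lig1 showed the same split with CoCl2. Dnmt1 by the set used read 8.20 to 8.59 in hypoxia arrays against 8.64 to 9.0 in controls, and 6.66 to 7.51 with CoCl2 against 8.73 to 8.94 in controls, while the further set read 5.22 to 6.09 in hypoxia arrays against 5.19 to 6.14, and 5.77 to 6.19 with CoCl2 against 5.68 to 5.72. Orc5 by the set used read 5.90 to 6.56 in hypoxia arrays against 6.31 to 6.73 in controls, and 5.65 to 6.38 with CoCl2 against 6.37 to 6.74 in controls, while the further set read 2.17 to 2.52 in hypoxia arrays against 2.18 to 2.47, and 2.16 to 2.62 with CoCl2 against 2.02 to 2.20. Rfc1 by the set used read 6.25 to 6.49 in hypoxia arrays against 6.82 to 7.19 in controls, and 5.99 to 6.71 with CoCl2 against 7.58 to 8.06 in controls, while the further set read 4.73 to 5.22 in hypoxia arrays against 4.99 to 5.37, and 4.48 to 4.93 with CoCl2 against 4.68 to 4.79. Dnmt1 and Rfc1 showed it as well, while for Orc5 both sets overlapped their controls.

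**Figure D4:**
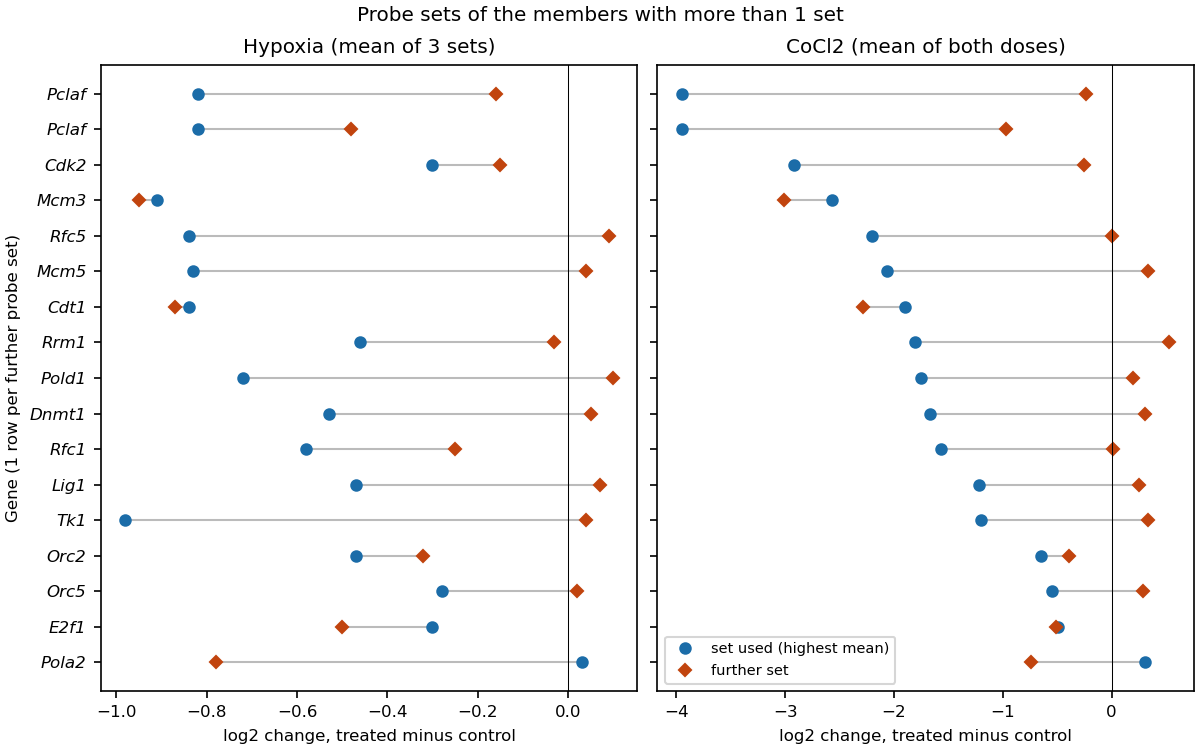
Log2 change of the probe set used (circle, highest mean) and of each further set (diamond) for the 16 members with more than 1 set, with hypoxia on the left and CoCl2 on the right. Both sets of Mcm3, Cdt1, Orc2 and E2f1 lie below 0, while further sets of Tk1, Rrm1, Mcm5 and others lie near or above 0, and the further set of Pola2 lies lower than the set used.

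Across the hypoxia sets, 37 of 47 members fell in the chamber (15.1% of all genes), 24 in experiment 1 (10.7%) and 31 in experiment 2 (7.79%). Orc4 alone rose in experiment 1, where 7.57% of all genes rose. The medians were -0.71, -0.44 and -0.60 log2 units, where those of all genes were 0.07, -0.03 and -0.03. Of the members, 20 fell in each of the 3 sets (4.65% of all genes), 12 in 2 (4.46%), 8 in 1 (10.7%) and 7 in none (80.2%). A negative change in all 3 was found for 42 members, against 24.2% of all genes. Cdc6, Mcm2, Mcm3, Mcm7, Cdc45, Cdt1, Fen1, Pola1, Rrm2, Tk1, Uhrf1, Cdca7 and Pclaf were among the 20. In experiment 1 the call of Pola1 (-0.45) had an adjusted p that rounds to 0.050, and it was lost on leaving out any of 15 of the 21 arrays in turn, with -0.40 and an adjusted p of 0.26 without control array 2 of experiment 1. The calls of Cdc45, Rfc1, Rpa2 and Pclaf in both incubator experiments, that of Pold2 in experiment 1 and the rise of Orc4 there were each lost without at least 1 array.

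None of the 47 members differed between chamber and incubator (limma, adjusted p under 0.05; 2.16% of all genes), and 12 had an unadjusted p under 0.05, where 21.0% of all genes had. Of these 12, 11 had the lower change in the chamber and 1 the higher. Of all genes, 10.3% had such a p with the higher change in the chamber. Prim1 came closest, with a difference of -0.61 ± 0.18 for chamber minus incubator (adjusted p = 0.078). With array weights 13 members were called, and with a fit of the hypoxia sets alone 7, so this count depends on the fit. Between experiments 1 and 2 none differed (limma, 0.327% of all genes), and 8 had an unadjusted p under 0.05, where 8.73% of all genes had one. All 8 had the higher change, which was a smaller fall, in experiment 1. Of all genes, 3.33% had such a p with the higher change in experiment 1. Control levels were not alike in the sets, since the median over members of the control means was 7.64 in the chamber set, 7.29 in experiment 1, 7.50 in experiment 2 and 7.77 in experiment 3. Of the 47 members, 23 had their lowest control mean in experiment 1.

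At the CoCl2 doses, 41 members fell at 100 µM (20.7% of all genes) and 40 at 200 µM (22.3%), against the same controls. At 100 µM 1 rose, Mcm6 (17.6%), and at 200 µM 3 rose, Orc4, Pola2 and Msh6 (19.7%). The medians were -1.40 and -1.58. These 4 rises, and the falls of Chaf1a, Ccne2 and E2f1 at 100 µM, were each lost without at least 1 array. Between doses, 6 members were lower at 200 µM than at 100 µM (8.85% of all genes), namely Cdk2 (-0.68 ± 0.16), Mcm5 (-0.74), Rpa3 (-0.57), Rfc4 (-0.48), Rpa1 (-0.45) and Rfc2 (-0.36), and 1 was higher, Cdt1 (0.48 ± 0.13; 7.83%). The lower calls make up 12.8% of the members. These 7 calls were not stable. Without array 2 at 200 µM 1 member was called, Cdk2. Without array 2 at 100 µM the calls of Mcm5 and Cdt1 were kept, 5 were lost, and Mcm6 (-0.83) and Chaf1a (-0.45) were called lower and Orc4 (0.52), Pcna (0.76), Rfc5 (0.41) and Dnmt1 (0.70) higher. With the Actb difference as a covariate, with array weights or in a fit of the compared arrays alone there were 0 (limma). The median fall was thus already -1.40 at the lower dose.

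RNA quality differed between these arrays. The Actb difference was 2.36 and 2.16 at 100 µM and 1.47 and 0.50 at 200 µM, against 1.41 and 1.62 in the experiment 3 controls. The same difference for Gapdh ordered these arrays otherwise. It was 1.44 and 2.18 at 100 µM and 0.45 and 0.12 at 200 µM, against 2.21 and 0.92 in the controls. The median change of the members on the same 4 CoCl2 arrays was -1.41, -1.41, -1.62 and -1.48, in the same order. With the Actb difference as a covariate, 41 members fell with CoCl2, with a median of -1.48. Pigment cell markers also moved, with a summed level of 48.67 to 58.66 on CoCl2 arrays against 67.71 to 68.98 in the experiment 3 controls, where 7 of 8 were lower and 1 was higher. In hypoxia that sum was 66.47 to 68.89 against 68.12 to 69.10 in controls. With CoCl2 none of the markers of other cell types was lower, where 23.0% of all genes were. Higher were 2 of 9 fibroblast, 2 of 7 leukocyte, 1 of 6 endothelial and 4 of 6 epithelial genes, where 23.3% of all genes were. The epithelial sum was 27.86 to 28.74 on CoCl2 arrays against 26.16 to 26.49 in controls. The part of RNA quality and of these markers in the result was not tested.

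Changes were mostly lower with CoCl2 than with hypoxia. The change with CoCl2 was lower than that with hypoxia for 33 of 47 members (16% of all genes), with a median difference of -0.99 log2 units, against 0.09 over all genes, and 0 were higher (limma; 9.33% of all genes), with 1 higher at an unadjusted p under 0.05 (18.4% of all genes). The largest differences were those of Pclaf (-3.12 ± 0.22; adjusted p = 5.6e-10), Cdk2 (-2.62 ± 0.16), Pola1 (-2.34 ± 0.17) and Cdc6 (-2.12 ± 0.15). For Rrm2 the difference was -1.64 ± 0.22 (adjusted p = 7.8e-06). Genes with small hypoxia changes, such as Gmnn (-1.80) and Cdc7 (-1.20), were among those that differed. The calls of Orc1, Prim1, Prim2, Rfc3 and Ccne2 were each lost without at least 1 array. As this test sets experiment 3 against the other sets, treatment and experiment cannot be told apart in it.

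For 14 members no difference passed the test. Pold2 had 0.00 ± 0.15 (95% interval -0.31 to 0.31) and Tk1 -0.22 ± 0.11 (-0.45 to 0.01), and the interval of Mcm7 ran from -0.57 to 0.10, that of Rpa2 from -0.59 to 0.04, that of E2f1 from -0.43 to 0.05 and that of Chaf1a from -0.37 to 0.23. Differences of about 0.3 to 0.6 log2 units thus stay within these intervals. Across the 47 members the changes with hypoxia and CoCl2 correlated with r = 0.756, against 0.571 over all 8251 genes, as a description across genes that are not independent replicates.

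**Figure D5:**
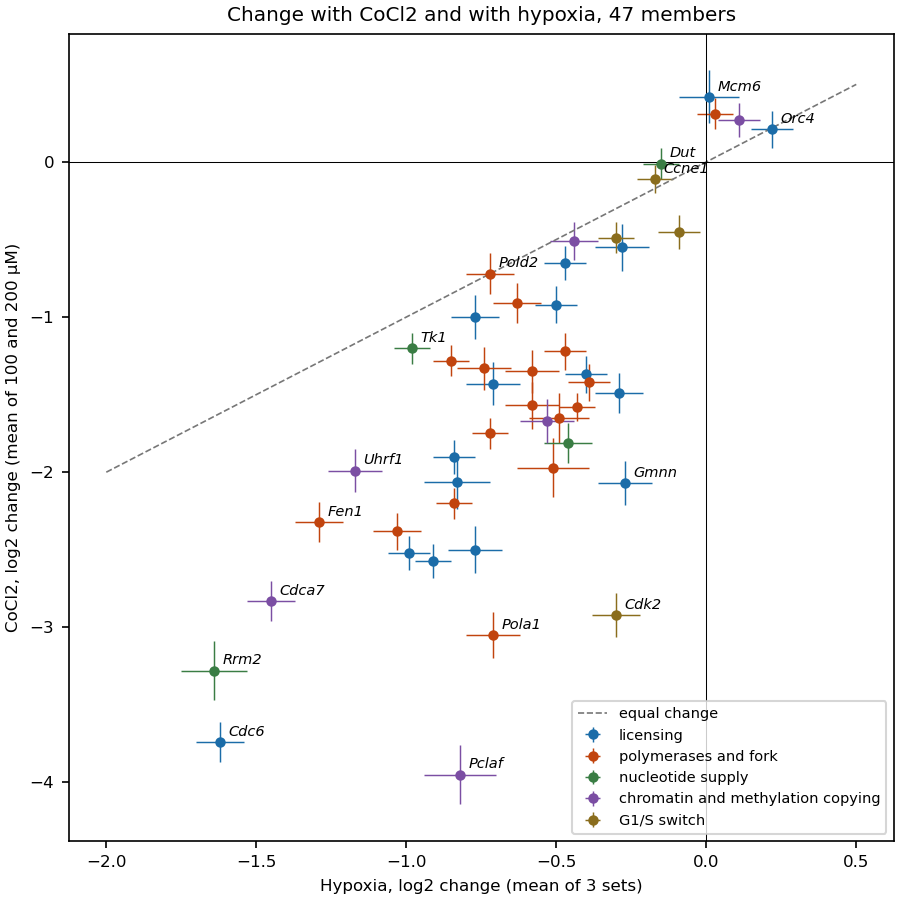
Log2 change with CoCl2 (vertical, mean of both doses) against that with hypoxia (horizontal, mean of 3 sets) for the 47 members, coloured by role, with standard errors as bars and a dashed line of equal change. Most points lie below the line; Pclaf (-0.82 and -3.95 for hypoxia and CoCl2) and Cdk2 (-0.30 and -2.92) lie far below it, and Pold2 and Tk1 lie near it.

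Other genes of the pathway were taken from lists by function. Beside each list's counts, 19.5% of all genes fell and 12.6% rose with hypoxia, and 23.0% fell and 23.3% rose with CoCl2. Of 31 measured replication and fork genes outside the module, 21 fell and 1 rose with hypoxia (median -0.40), and 22 fell and 3 rose with CoCl2 (median -1.01). Pole2, a subunit of polymerase epsilon, changed by -0.98 and -2.44, Pole4 of the same enzyme by -0.79 and -1.78, and the histone chaperone gene Nasp by -0.89 and -1.69. Pold4, the small subunit of polymerase delta, went the other way. It read 6.54 to 6.93 in hypoxia arrays against 5.99 to 6.43 in controls, and 6.88, 6.58, 6.67 and 6.88 with CoCl2 against 6.06 and 6.00 in controls, and rose by 0.47 ± 0.07 and 0.72 ± 0.11.

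Topbp1, which helps start replication and activates the checkpoint kinase ATR, changed by -0.62 and -2.93. With CoCl2 Gins2, a subunit of the active helicase, rose by 0.39. It read 3.86 to 4.15 with CoCl2 against 3.52 and 3.65 in controls, all under the array medians. Ung, which removes uracil from DNA, rose by 0.30 with CoCl2, while its further set gave -0.52 with hypoxia and -0.08 with CoCl2. By dose, the set used for Ung rose at 200 µM (0.51) and was not called at 100 µM (0.10).

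Top2a, the topoisomerase that untangles DNA and peaks in G2, did not pass the test with hypoxia (-0.06 ± 0.08; adjusted p = 0.67) and fell by 3.95 ± 0.14 with CoCl2. It read 5.26 and 5.55 at 100 µM and 4.59 and 4.41 at 200 µM, against 9.07 and 8.73 in controls. Mki67, a proliferation marker, did not pass it either on the probe set used, with -0.20 ± 0.11 with hypoxia (adjusted p = 0.19) and a change of -4.30 ± 0.17 with CoCl2, while its further set was not called (0.06 and 0.27). Whether the changes differed between these genes and the members was not tested.

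Of 30 enzymes of purine, pyrimidine and folate metabolism, 15 fell and 1 rose with hypoxia (median -0.27), where 19.5% and 12.6% of all genes did. With CoCl2 17 fell and 5 rose (median -0.44), where 23.0% and 23.3% of all genes did. The purine synthesis genes Gart and Adsl changed by -0.95 and -0.79 with hypoxia and by -1.39 and -1.69 with CoCl2, and the nucleoside diphosphate kinase gene Nme1 by -1.02 and -2.02. Shmt1, which feeds the folate cycle, changed by -1.03 and -1.34, and Adk, the adenosine kinase, by -0.67 and -1.98. Further sets of Nme1, Shmt1 and Adk were not called. The mean change of Uck2, the uridine-cytidine kinase, with hypoxia was 0.23 ± 0.09 (adjusted p = 0.045), but the sets disagreed. Uck2 read 8.73 to 8.77 in chamber hypoxia against 8.99 and 9.07 in controls. Experiment 1 gave 9.02 to 9.07 against 8.41 and 8.36, and experiment 2 gave 8.65 to 8.77 against 8.40 and 8.41. With CoCl2 Uck2 rose by 0.55 ± 0.14. It read 8.34 and 8.13 at 100 µM (not called) and 8.56 and 9.42 at 200 µM, against 8.12 and 8.00 in controls. Ak1, an adenylate kinase, rose by 0.51 with CoCl2, and the ectonucleotidase gene Nt5e by 0.53. By dose, Ak1 rose at 100 µM (0.81) and was not called at 200 µM (0.22). All values of Nt5e lay under the array medians.

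Among 29 regulators of G1 and S phase entry outside the module, 11 fell and 10 rose with hypoxia (median 0.02), and 14 fell and 3 rose with CoCl2 (median -0.30). Cdkn1a, the CDK inhibitor p21, read 8.85 to 9.35 in hypoxia arrays against 7.08 to 7.70 in controls, and 7.70, 7.49, 8.24 and 9.89 with CoCl2 against 6.59 and 6.72 in controls. It rose by 1.85 ± 0.15 with hypoxia and by 1.68 ± 0.25 with CoCl2, and its further set rose by 1.67 and 1.91. Ccng2, which encodes the unusual cyclin G2 of resting cells, read 8.21 to 8.77 in hypoxia arrays against 5.02 to 5.59 in controls, and 8.73, 9.23, 8.51 and 8.10 with CoCl2 against 5.96 and 6.08 in controls. It rose by 3.18 ± 0.09 with hypoxia and by 2.62 ± 0.14 with CoCl2. Cdkn1b, the CDK inhibitor p27, rose by 0.58 with hypoxia and had 0.34 with CoCl2 (adjusted p = 0.089). With CoCl2 Cdkn2a, the locus of a further CDK inhibitor, rose by 0.34 (adjusted p = 0.040). Neither dose was called by itself (0.33 at 100 µM and 0.35 at 200 µM). Cdkn2a read 5.83, 5.66, 5.87 and 5.65 with CoCl2, against 5.48 and 5.34 in controls.

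Tfdp1, the partner that E2F factors bind DNA with, changed by -1.01 and -2.50. Its further sets gave -0.95 and -2.31 for one and -0.38 and 0.16 for the other. Rbl1, the pocket protein p107, changed by -0.56 and -2.88, and Ccna2, the S phase cyclin A, by -0.38 and -1.83. Ccnd1, the G1 cyclin D1, changed by -0.39 and -1.86. Its hypoxia arrays overlapped the controls in the chamber set (7.87, 8.25 and 7.95 against 7.93 and 7.97). They lay below both controls in experiments 1 (6.46 to 6.80 against 7.41 and 7.65) and 2 (7.23 to 7.35 against 7.68 and 7.63). Cdc25a, the phosphatase that activates CDK2, changed by -0.82 and -0.94, and Mybl2, a cell cycle transcription factor, by -0.60 and -0.25. Further sets of Ccnd1, Cdc25a and Mybl2 were not called. Myc, the growth regulator, went opposite ways, with a rise of 0.71 ± 0.09 with hypoxia and a change of -0.85 ± 0.14 with CoCl2, a difference of -1.56 ± 0.17 (adjusted p = 3.1e-07).

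Of 25 genes of the replication checkpoint, which guards stalled forks, 14 fell and 4 rose with hypoxia (median -0.28), and 18 fell and 1 rose with CoCl2 (median -0.76). Chek1, its effector kinase, changed by -1.06 ± 0.07 and -2.71 ± 0.11, and Tipin, which helps Chek1 to be activated, by -0.73 and -2.41. Brca1, which protects stalled forks, changed by -0.59 and -2.95. Usp1, which removes ubiquitin from PCNA, changed by -0.80 and -2.61. The ubiquitin-conjugating enzymes Ube2a and Ube2b, which modify PCNA, each had a mean change of 0.22 with hypoxia (adjusted p = 0.033 and 0.045). Ube2a overlapped its controls in the chamber set (5.50, 5.54 and 5.71 against 5.70 and 5.61) and lay above them in both incubator experiments. Ube2b lay above its controls in each set. With CoCl2 Ube2a and Ube2b had -0.75 (lower) and -0.07 (not called). Rad54l, a recombination gene, rose by 0.38 with CoCl2 (adjusted p = 0.031). It read 4.21 and 4.02 at 100 µM (not called) and 4.77 and 4.06 at 200 µM, against 3.88 and 3.88 in controls. All of these values lie under the array medians. Wee1, the kinase that restrains CDKs, read 6.80 to 7.28 in hypoxia arrays against 6.21 to 6.71 in controls, and 5.63, 6.12, 6.02 and 5.53 with CoCl2 against 6.94 and 6.61 in controls. It rose by 0.50 ± 0.09 with hypoxia and changed by -0.95 ± 0.15 with CoCl2, a difference of -1.45 ± 0.17 (adjusted p = 1.7e-06). Over all genes the background shares for hypoxia and CoCl2 are those given for the members.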

How the data were processed

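RNA of B16-F10 cells was measured on 21 Affymetrix U74Av2 arrays. The values deposited by the authors are log2 values, 1 per probe set and array, made with GCOS 1.2 and RMA per the submitters' processing notes. Whether RMA was run once over the whole series is not given in the sources used here. RMA shrinks low values toward each other, so changes of dim probe sets are understated. Values ran from 1.37 to 13.27 and were used without further scaling. Arrays carry no read depth, and their number limits the precision.

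Of 12488 probe sets, 10833 had 1 gene, and 10817 of those had their symbol updated by Entrez identifier through RefSeq (GRCm38.p6). The set with the highest mean stood for a gene, which gave 8251 genes. No detection calls were used.

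Limma 3.58.1 in R 4.3.3 fitted 1 mean per group over all 21 arrays (12 residual degrees of freedom, 20.9 after moderation). Hypoxia is the mean of the differences within the 3 sets. Tests were two-sided, adjusted over 8251 genes by the Benjamini-Hochberg method, and called when the adjusted p was under 0.05. Each ± is a standard error. Every member may be named. Genes of related lists were named where their changes were among the largest or opposed the list, or were always looked at.

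The members and lists were chosen with earlier results of these data known. Replicate numbers were not treated as pairs, since residuals of same-numbered arrays correlated between -0.370 and 0.235 over 12 pairs. Alternatives were 2 other scalings, a filter on low values, the mean of all probe sets, another variance model, array weights, a replicate block, fewer arrays in the fit, the Actb covariate, leaving out each array, and another probe set for Pola2.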

Additional observations from a re-analysis of the deposited data

Results flagged for a closer look

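The changes with CoCl2 and with hypoxia were compared by the test of their difference, and 33 of the 47 members differed. The member with the lowest difference in each role is given, so these genes were picked by the value shown. The difference was -3.12 log2 units for Pclaf, -2.62 for Cdk2, -2.34 for Pola1, -2.12 for Cdc6 and -1.64 for Rrm2, each lower with CoCl2. Further probe sets of Pclaf and Cdk2 showed smaller changes, and treatment and experiment cannot be told apart.

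Between 200 µM and 100 µM CoCl2, 7 members differed. The difference was -0.74 for Mcm5, -0.68 for Cdk2, -0.57 for Rpa3, -0.48 for Rfc4, -0.45 for Rpa1 and -0.36 for Rfc2, and 0.48 for Cdt1. With 2 arrays at each dose, these calls rested on single arrays. No group held 4 or more arrays, so single arrays far from their group were not sought.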

How the results depend on the processing

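The counts of members that fell with hypoxia, CoCl2 and in each set, and the 33 that fell further with CoCl2, stayed within 1.5 times of the reported counts under every alternative run. Leaving out each array gave 39 to 42 lower members for hypoxia, 31 to 40 for the chamber, 17 to 28 for experiment 1, 23 to 34 for experiment 2, 40 to 41 for CoCl2 and 30 to 33 for the difference. Replicate number as a block left 41 members lower with hypoxia and 41 with CoCl2. It left 4 dose calls, 3 of them lower, and the hypoxia call of Orc4 was lost (adjusted p = 0.053).

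Counts that moved were those between chamber and incubator (0 as reported) and those between doses (7 as reported). Between chamber and incubator, 1 member was called with median centring, 13 with array weights (12 of them lower), 7 in a fit of the compared groups alone, 1 with the Actb covariate and 0 to 1 on leaving out an array. Between doses, 0 were called with array weights, 0 in a fit of the compared groups alone, 0 with the Actb covariate and 1 to 9 on leaving out an array (1 to 8 lower). Without array 2 at 200 µM CoCl2, 1 was left.

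The low-value filter, which left out 7 members, gave medians of -1.66 for CoCl2 and -1.55 at 100 µM. The mean of all probe sets gave -0.55 for the chamber, -1.28 for CoCl2, -1.20 at 100 µM, -1.24 at 200 µM and -0.59 for the difference. Pola2 turned round with the mean of its sets (-0.37 with hypoxia, -0.21 with CoCl2, -0.19 at 200 µM). By its other set, chosen after seeing the data, it gave -0.78 with hypoxia, -0.71 in the chamber, -0.74 with CoCl2, -0.73 at 100 µM and -0.75 at 200 µM. The dose difference of Mcm5 was 0.05 with the Actb covariate. The causes were not tested. Where a group had 2 arrays, leaving out 1 assumes that the other varies like the remaining groups. Changes of members near the bottom of the scale, such as Ccne2 and Mcm6, are limited by signal over background, which was not measured here.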
